A study of Mus musculus with 6 samples.

Results

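The carboxylesterase genes described here are the 10 mouse genes Ces1b, Ces1c, Ces1d, Ces1e, Ces1f, Ces1g, Ces2a, Ces2e, Ces3a and Ces3b. They were taken by symbol from a table of 35970 gene symbols, after the TPM of their 33 transcripts had been summed per symbol. TPM scale each transcript by its length and by the library total, so levels of different genes can be set side by side. The other 10 carboxylesterase symbols of the table are not members and are given beside them.

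The libraries came from livers of Fah-/-;dCas9+ mice, which lack the last enzyme of tyrosine breakdown and carry dCas9, a Cas9 that binds without cutting and represses the gene its guide RNA points to (CRISPRi). All mice were kept on 7.5 µg/mL nitisinone, a drug that protects Fah-deficient hepatocytes, and were injected through the tail vein with 10 µg of transposon plasmid and an AAV8 virus whose Cre is driven by the hepatocyte promoter TBG. The plasmid carried Fah, the ribosomal protein L10a fused to GFP, and a guide that was either non-targeting (3 mice) or against Neurl1b (3 mice). Nitisinone was then withheld, and 4 weeks later 400 mg of each liver was lysed and tagged ribosomes were captured through GFP, so that the RNA should come mainly from hepatocytes that had taken up the plasmid. Age is not given in the sources used here. The labels number separate mice, so p-values measure the spread between mice.

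Carboxylesterases are serine hydrolases, most of them held in the lumen of the endoplasmic reticulum. They split ester, thioester and amide bonds in drugs and in lipids such as triacylglycerol and retinyl esters, and the liver is a main site of their expression. In the mouse the genes have multiplied into tandem arrays, and several are induced through the nuclear receptors PXR and CAR.

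In the GENCODE vM21 annotation all 20 carboxylesterase genes lay on chromosome 8, with Ces1a to Ces1h and Ces5a on the minus strand and then, from Ces2a to Ces4a, the Ces2, Ces3 and Ces4 genes on the plus strand. The coding sequence around the active-site serine is shown for the 10 genes because it is the stretch that defines the family and because it shows how alike the paralogs are. Each line has 60 bases of the main protein-coding transcript, 5′ to 3′, from the vM21 transcripts, and the capitals mark the 15 bases that encode the active-site stretch.
Ces1b: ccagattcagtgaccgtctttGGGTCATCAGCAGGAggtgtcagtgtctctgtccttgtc
Ces1c: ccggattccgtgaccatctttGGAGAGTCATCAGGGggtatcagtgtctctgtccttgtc
Ces1d: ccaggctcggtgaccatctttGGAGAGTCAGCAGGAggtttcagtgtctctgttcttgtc
Ces1e: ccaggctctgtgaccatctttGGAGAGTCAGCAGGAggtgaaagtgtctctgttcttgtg
Ces1f: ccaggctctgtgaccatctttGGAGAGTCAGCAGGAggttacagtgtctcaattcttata
Ces1g: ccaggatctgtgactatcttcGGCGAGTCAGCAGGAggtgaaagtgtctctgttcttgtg
Ces2a: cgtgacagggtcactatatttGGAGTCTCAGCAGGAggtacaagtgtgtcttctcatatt
Ces2e: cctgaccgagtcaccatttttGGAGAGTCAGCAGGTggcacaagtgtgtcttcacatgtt
Ces3a: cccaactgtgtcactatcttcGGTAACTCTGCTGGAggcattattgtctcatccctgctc
Ces3b: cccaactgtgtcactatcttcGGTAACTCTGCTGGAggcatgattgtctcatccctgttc
The windows of Ces3a and Ces3b differed at 2 of 60 bases, those of Ces1d and Ces1e at 5, and those of Ces1b and Ces1c at 10. The best local alignment of the main Ces3a and Ces3b transcripts covered 962 bases, at 95.8% identity. It left out much of both transcripts, which have 1903 and 2403 bases. The best local alignment of Ces1b and Ces1c covered 1879 bases, at 88.6% identity.

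Such likeness bears on the levels, because kallisto divides reads that fit several transcripts by estimation. The share of all 31-base stretches of the main transcript that no other gene of the table held was therefore counted in the vM21 transcripts, which held 99.15% of the table's transcripts with a symbol. That share was 94.5% for Ces1f, 93.9% for Ces1g, 92.5% for Ces1d, 91.3% for Ces1e and 88.1% for Ces2e. It was 76.1% for Ces1b and 69.9% for Ces1c, which mostly shared with each other. The least distinct members were Ces3b with 63.9%, Ces2a with 62.6% and Ces3a with 54.2%. Ces3a shared only with Ces3b in this count, and the predicted gene Gm7208 held 30.9% of the stretches of Ces2a. The division of reads between Ces3a and Ces3b, between Ces1b and Ces1c, and between Ces2a and Gm7208 is thus the least certain.

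**Figure D1:**
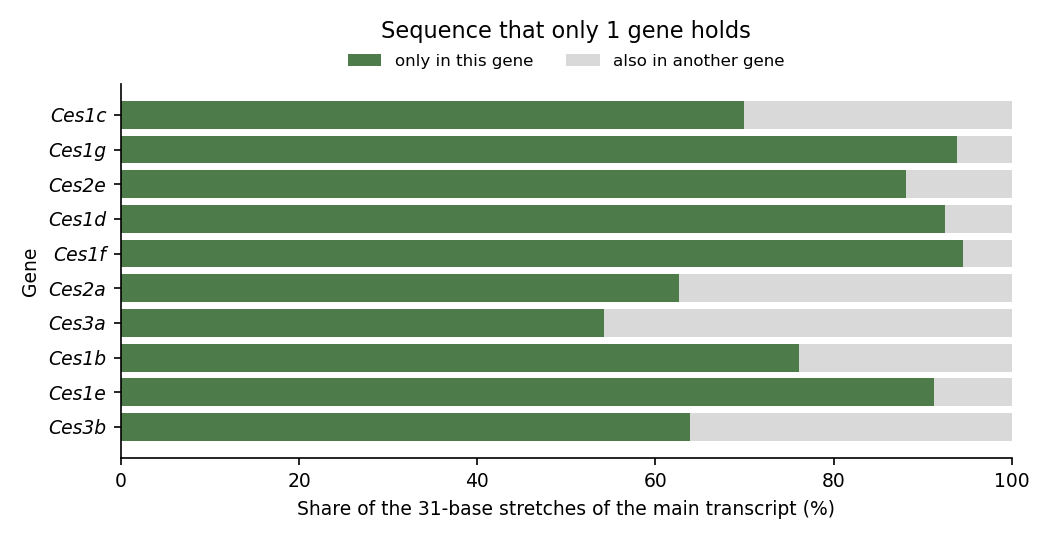
For each of the 10 genes (vertical axis), the share in percent of the 31-base stretches of its main protein-coding transcript that were found in no other gene (green) or also in another gene (grey). Ces3a, Ces2a and Ces3b have the smallest green shares, from 54.2% to 63.9%, and Ces1f has 94.5%.

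Sequences upstream of the start site were looked up for the family in the RefSeq promoter table (GRCm38.p6), which held 16 entries for 15 of the 20 genes. The members Ces1d, Ces1f and Ces3a had no entry. The 250 bases before the start are printed for 4 members: Ces1b and Ces1c because they are near-copies at very different levels, Ces3b from the subfamily that differed most between the groups, and Ces1g as the member with a positive difference. They are given 5′ to 3′ on the gene's strand, with CCAAT and TATAAA of either strand in capitals, a choice made after the matches were seen.
Ces1b, chr8:93079941-93080190, minus strand: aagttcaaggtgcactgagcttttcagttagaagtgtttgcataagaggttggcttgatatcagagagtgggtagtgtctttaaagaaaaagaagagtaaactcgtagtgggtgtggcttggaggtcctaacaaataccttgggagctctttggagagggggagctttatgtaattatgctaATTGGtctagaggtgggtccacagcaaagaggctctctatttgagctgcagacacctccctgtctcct
Ces1c, chr8:93131284-93131533, minus strand: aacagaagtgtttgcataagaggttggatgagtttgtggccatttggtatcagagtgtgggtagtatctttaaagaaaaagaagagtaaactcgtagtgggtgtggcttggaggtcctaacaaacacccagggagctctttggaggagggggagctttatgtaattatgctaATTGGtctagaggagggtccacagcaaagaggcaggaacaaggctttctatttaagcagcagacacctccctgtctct
Ces1g, chr8:93337210-93337459, minus strand: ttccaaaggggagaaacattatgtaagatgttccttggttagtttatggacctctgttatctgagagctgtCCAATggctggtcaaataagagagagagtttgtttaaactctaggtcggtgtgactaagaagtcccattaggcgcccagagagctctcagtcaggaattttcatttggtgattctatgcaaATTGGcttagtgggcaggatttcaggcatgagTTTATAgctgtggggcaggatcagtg
Ces3b, chr8:105083505-105083754, plus strand: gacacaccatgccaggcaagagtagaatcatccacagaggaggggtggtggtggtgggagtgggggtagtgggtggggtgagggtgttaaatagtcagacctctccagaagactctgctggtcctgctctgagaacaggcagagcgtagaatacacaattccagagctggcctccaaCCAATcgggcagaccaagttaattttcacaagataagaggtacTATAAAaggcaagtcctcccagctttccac
The Ces1b and Ces1c stretches were 84.6% identical over 246 aligned bases, and both carried a single CCAAT box on the reverse strand. The second, overlapping entry of Ces1b, which is not printed, held no CCAAT. Searched on both strands over the 250 bases, CCAAT was found in 10 of the 16 family entries and in 33.8% of all 32851 entries of the table. Several family entries resemble each other, as also those of Ces2c and Ces2g (82.2% identity over 73 aligned bases), so the 16 are not independent. TATAAA was found in 3 of 16 against 12.4% of all, the nuclear receptor motifs AGGTCA in 3 against 14% and AGTTCA in 4 (3 genes, since the overlapping entries of Ces1b hold the same site) against 11.8%, and GTTAAT in 2 against 6.43%. No family entry held TTGCAA, CAAAGTCC or TGTTTAC, against 5.34%, 1.2% and 3.17% of all, or TGACNNNGC, against 10.2% of all. 0 pairs of different motifs overlapped in the family entries. Matches of letters are a description and do not show that a factor binds there.

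Facts of the whole series that touch the carboxylesterases were measured first. Neurl1b had a TPM of 1.22, 0.897 and 0.688 in the non-targeting mice and of 0.295, 0.351 and 0.307 in the CRISPRi mice, and its mean was below the filter for testing. Of the genes on the plasmid, Fah was at 52.9 to 71.4 TPM in the non-targeting and 52.5 to 79.6 in the CRISPRi mice, and Rpl10a, whose mouse gene also contributes, at 979 to 1084 and 869 to 1066. The hepatocyte gene Alb was at 11518 to 31253 TPM, while the Kupffer cell gene Clec4f was at 9.25 to 21.1, the endothelial gene Stab2 at 0.792 to 1.60, the cholangiocyte gene Krt19 at 0.264 to 4.04 and the stellate cell gene Lrat at 0.501 to 1.71. Of these single genes, Stab2, Krt19 and Lrat were each higher without overlap in the CRISPRi mice, against 12.5% of all genes, while Alb and Clec4f overlapped. The summed TPM of 10 stellate cell and fibroblast markers was 14.5 to 30.5 in the non-targeting and 36.5 to 49.96 in the CRISPRi mice, and that of 12 Kupffer cell and macrophage markers was 89.0 to 163 and 132 to 196. The sums of endothelial markers (21.7 to 30.5 and 21.7 to 34.8) and of cholangiocyte markers (19.8 to 31.6 and 21.2 to 27.9) overlapped. No marker of these lists was at 0 in all 6 libraries. Hepatocyte markers (11 of the 12 symbols found) summed to 60303 to 91259 and 46739 to 60909 TPM, with overlap. Of these 11 hepatocyte genes, 9 had a log2 fold change below 0, against 26.0% of all genes tested. At an unadjusted p below 0.05 in limma 2 of them were lower, against 3.19% of all genes. Their median log2 fold change was -0.32, beside 0.18 for all genes, so this list lay on the same side as the carboxylesterases. All 7 tested stellate cell markers and all 10 tested Kupffer cell markers were above 0, as were 7846 of all 10598 genes tested. Above 0 were also 4 of 5 tested endothelial and 1 of 4 tested cholangiocyte markers, but 0 of 2 lymphocyte and neutrophil and 0 of 5 red cell markers. The Y-linked gene Ddx3y was present in every library, at 11.3 to 19.1 TPM. A lower level in such bulk material cannot be told apart from fewer cells of a type that express the gene. Neither the part of the stellate cell markers nor that of the hepatocyte markers in the results below was tested.

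Levels differed widely among the 10 genes. Ces1c, which encodes the carboxylesterase secreted into mouse plasma, had a mean TPM of 485 over the 6 libraries and made up 45.6% to 57.6% of the summed TPM of the 10 members in a library. It was followed by Ces1g (149), Ces2e (93.8), Ces1d (68.9), Ces1f (57.8), Ces2a (47.1), Ces3a (24.5), Ces1b (11.7), Ces1e (9.37) and Ces3b (5.72). Only Ces1c stood apart from its neighbour in this order, with a lowest value of 362 TPM against a highest of 187 for Ces1g. The ranges of all other neighbours overlapped, although Ces1g was above Ces2e and Ces1e above Ces3b in 6 of 6 libraries. Ces1b, the near-copy of Ces1c, was present at 8.15 to 21.1 TPM. The place of Ces1d depends on a retained-intron model that gave 41.4% of its mean. Its main coding transcript had a mean of 39.5 TPM, beside 51.2 for that of Ces1f and 40.2 for that of Ces2a.

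**Figure D2:**
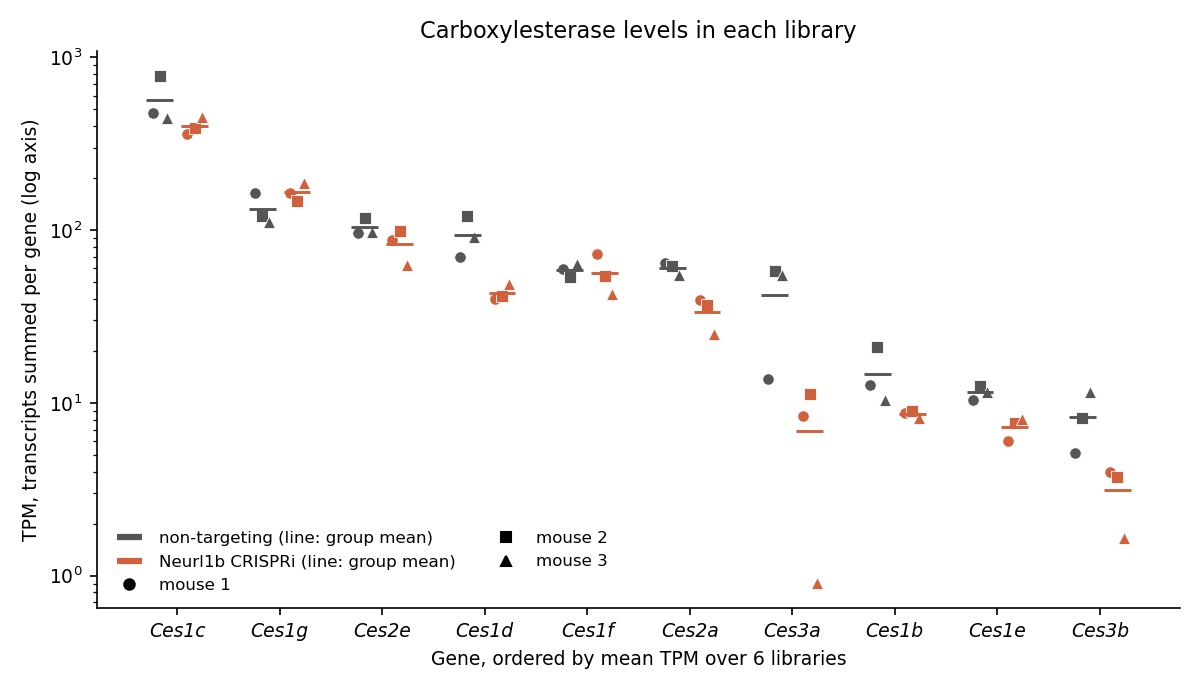
TPM on a log axis of each of the 10 genes (horizontal axis, ordered by mean) in the 3 non-targeting (grey) and 3 Neurl1b CRISPRi libraries (orange), with 1 symbol per mouse and a line at each group mean. Ces1d, Ces2a, Ces3a, Ces1b, Ces1e and Ces3b show all CRISPRi mice below all non-targeting mice, and Ces3a in CRISPRi mouse 3 lies at 0.912 TPM.

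The comparison of the guides asked how ribosome-bound carboxylesterase mRNA differed when Neurl1b was repressed. Of the 10 members, 9 had a negative log2 fold change (CRISPRi minus non-targeting) and 1, Ces1g, a positive one. All 10 passed the filter of a mean TPM of at least 1. None passed an adjusted p of 0.05 in limma over the 10598 genes tested, of which 0.0189% passed, all of them higher (0.0% lower). At an unadjusted p below 0.05 there were 6 members, all lower, against 3.19% of all genes as lower and 10.1% as higher. The same 6 members had groups that did not overlap, against 4.57% of all genes in that direction. The median log2 fold change of the members was -0.63, beside 0.18 for all genes tested, of which 26.0% were below 0. The members were listed with results of these data known, so these counts describe them and do not test the family.

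Of the subfamilies, Ces3 had the lowest summed level in the CRISPRi mice relative to the controls. Ces3a was at 13.7, 57.7 and 55.2 TPM in non-targeting mice 1, 2 and 3 and at 8.45, 11.3 and 0.912 TPM in CRISPRi mice 1, 2 and 3. The groups did not overlap, but non-targeting mouse 1 lay close to CRISPRi mouse 2, and CRISPRi mouse 3 lay far below the other CRISPRi mice. The means were 42.2 ± 24.7 and 6.87 ± 5.35 TPM (SD, n = 3 each), a 6.14-fold difference. On the log2(TPM + 1) scale the difference was -2.59 (SE 0.75, 95% interval -4.30 to -0.88), rank 16 from the lowest of all genes, with an adjusted p of 0.323 in limma. It was -1.76 without CRISPRi mouse 3 and -3.25 without non-targeting mouse 1, the ends of the range when each mouse was left out in turn. Both full-length coding transcripts of Ces3a contributed. One was at 5.12, 29.1 and 37.4 TPM in the non-targeting mice and at 2.39, 5.01 and 0.0234 in the CRISPRi mice, and the other at 8.38, 27.7 and 17.2 against 5.89, 6.24 and 0.889.

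Ces3b was at 5.16, 8.20 and 11.6 TPM in the non-targeting mice and at 3.99, 3.74 and 1.66 in the CRISPRi mice. As for Ces3a, non-targeting mouse 1 was the lowest control and CRISPRi mouse 3 the lowest of all. Its log2 fold change of -1.17 (SE 0.33) had an adjusted p of 0.323 in limma. Because these genes share so many 31-base stretches, their sum is the firmer measure: it was 18.9, 65.9 and 66.8 TPM in the non-targeting and 12.4, 14.99 and 2.57 TPM in the CRISPRi mice, so that the CRISPRi mean was 19.8% of the control mean. Beside this, the summed TPM of 12 male-biased liver genes was 1081, 2062 and 4043 in the non-targeting and 771, 969 and 535 in the CRISPRi mice. The summed TPM of 9 female-biased genes overlapped, at 693, 1063 and 930 in the non-targeting and 1100, 978 and 636 in the CRISPRi mice. At an unadjusted p below 0.05 in limma, 3 of 7 tested female-biased and 3 of 9 tested male-biased genes were lower, against 3.19% of all genes. Lower without overlap were 3 female-biased and 5 male-biased genes, against 4.57% of all genes. Higher without overlap was 1 female-biased gene, against 12.5% of all genes. In the Ces3, male-biased and female-biased sums alike, non-targeting mouse 1 was the lowest control and CRISPRi mouse 3 the lowest library. The part of sex-biased expression in the Ces3 result was not tested.

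Ces1d encodes triacylglycerol hydrolase, which releases fatty acids from stored triacylglycerol for the assembly of very low density lipoprotein (VLDL). It had the smallest p of the members. Non-targeting mice had 69.7, 121 and 91.9 TPM of Ces1d, and CRISPRi mice had 39.8, 41.7 and 48.7. Every CRISPRi mouse was below every control, and the CRISPRi mice lay close together. The means were 94.3 ± 25.9 and 43.4 ± 4.71 TPM (SD, n = 3 each), 2.17-fold apart, with a log2 fold change of -1.07 (SE 0.22, 95% interval -1.57 to -0.57). The unadjusted p was 0.00102, ranked 37 of 10598, and the adjusted p in limma was 0.259.

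The Ces1d sum held 2 large parts. Its coding transcript of 2004 bases was at 46.0, 64.9 and 47.1 TPM in the non-targeting and 25.4, 26.9 and 26.6 TPM in the CRISPRi mice. A model of 574 bases annotated as a retained intron was at 22.8, 55.3 and 44.3 against 14.4, 13.5 and 20.7 TPM and gave 41.4% of the gene's mean TPM. Neither part overlapped between the groups, and the coding transcript alone was lower in every CRISPRi mouse. The log2 fold change of the coding transcript was -0.96 and that of the other was -1.22, each with an adjusted p of 0.500 in limma over transcripts.

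**Figure D3:**
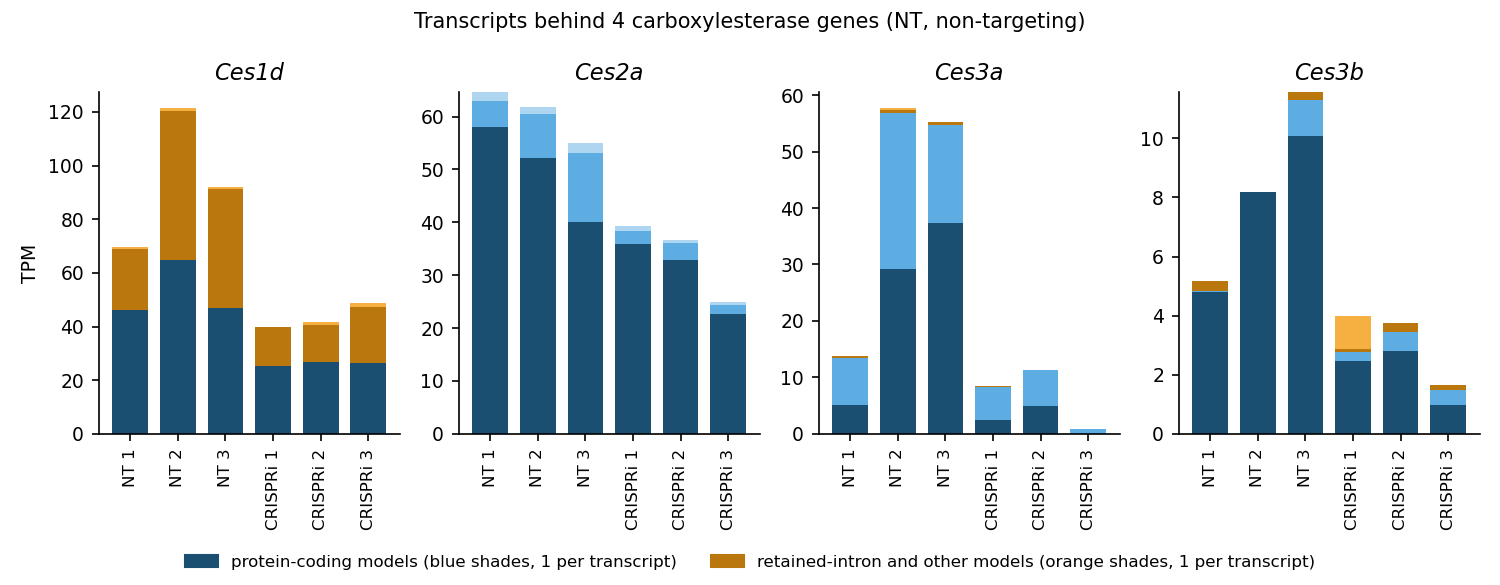
Stacked TPM of the transcripts of Ces1d, Ces2a, Ces3a and Ces3b in the 3 non-targeting (NT) and 3 CRISPRi libraries, with protein-coding models in blue and retained-intron or other models in orange. For Ces1d both the coding transcript (46.0 to 64.9 against 25.4 to 26.9 TPM) and the retained-intron model are lower in the CRISPRi mice.

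Ces1e and Ces1b were lower by smaller amounts. Ces1e encodes egasyn, which holds beta-glucuronidase in the endoplasmic reticulum. It was at 10.3, 12.6 and 11.6 TPM in the non-targeting and 6.004, 7.66 and 8.03 TPM in the CRISPRi mice, without overlap (log2 fold change -0.61, SE 0.18, limma adjusted p = 0.323). Gusb, the gene of beta-glucuronidase, had 14.5, 13.7 and 13.9 against 16.9, 16.6 and 15.7 TPM, and its adjusted p in limma was 0.504. Ces1b was at 12.7, 21.1 and 10.4 TPM against 8.70, 8.997 and 8.15. Its groups did not overlap either, although non-targeting mouse 3 was close to the CRISPRi mice (log2 fold change -0.65, SE 0.25, limma adjusted p = 0.350).

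The remaining Ces1 genes overlapped between the groups. Ces1c was at 477, 780 and 445 TPM in the non-targeting and 362, 390 and 452 TPM in the CRISPRi mice. Non-targeting mouse 2 was well above the rest, and CRISPRi mouse 3 was above non-targeting mouse 3 (log2 fold change -0.46, 95% interval -0.98 to 0.06, limma adjusted p = 0.403). Ces1f, which encodes a second triacylglycerol hydrolase, was at 59.6, 53.8 and 63.4 against 72.7, 54.6 and 42.6 TPM, with CRISPRi mice both above and below the controls (log2 fold change -0.09, 95% interval -0.57 to 0.40). Ces1g, a further lipid-metabolising esterase of liver, was the single member with more TPM in the CRISPRi mice, at 164, 121 and 112 against 164, 148 and 187. Non-targeting mouse 1 lay beside CRISPRi mouse 1, above CRISPRi mouse 2 (log2 fold change 0.34, 95% interval -0.09 to 0.78, limma adjusted p = 0.419).

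Summed over its 6 members, the Ces1 subfamily had 793, 1110 and 734 TPM in the non-targeting and 654, 651 and 746 TPM in the CRISPRi mice. These sums overlapped, and the log2 ratio of their means, -0.36, was -0.16 without non-targeting mouse 2, the library with the highest Ces1c. Ces1c gave most of these totals. Ces1d gave a smaller part, with means of 94.3 and 43.4 TPM in the non-targeting and CRISPRi mice, and Ces1e little (11.5 and 7.23 TPM).

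The Ces2 members encode esterases that act on drugs with a large alcohol group and on acylglycerols. Ces2a was at 64.6, 61.9 and 55.0 TPM in the non-targeting and 39.4, 36.7 and 25.0 TPM in the CRISPRi mice. The groups were well apart and the spread within each was small, with means of 60.5 ± 4.99 and 33.7 ± 7.64 TPM (SD, n = 3 each). A log2 fold change of -0.85 (SE 0.20, 95% interval -1.31 to -0.39) came with an unadjusted p of 0.00263 and an adjusted p of 0.310 in limma. Each of the 3 coding transcripts of Ces2a that were tested was below 0, at -0.71, -1.41 and -0.62. Gm7208, which holds part of the same sequence, was at 1.10, 2.73 and 0.882 against 0.0857, 0 and 0 TPM. The part of reads shared with Gm7208 in the Ces2a difference was not tested.

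Ces2e was at 96.9, 118 and 97.7 TPM in the non-targeting and 87.9, 99.3 and 63.2 TPM in the CRISPRi mice. CRISPRi mouse 2 lay above 2 of the controls and CRISPRi mice 1 and 3 below all (log2 fold change -0.34, 95% interval -0.79 to 0.12, limma adjusted p = 0.445). The sum of Ces2a and Ces2e did not overlap between the groups, at 153 to 180 TPM against 88.2 to 136.

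**Figure D4:**
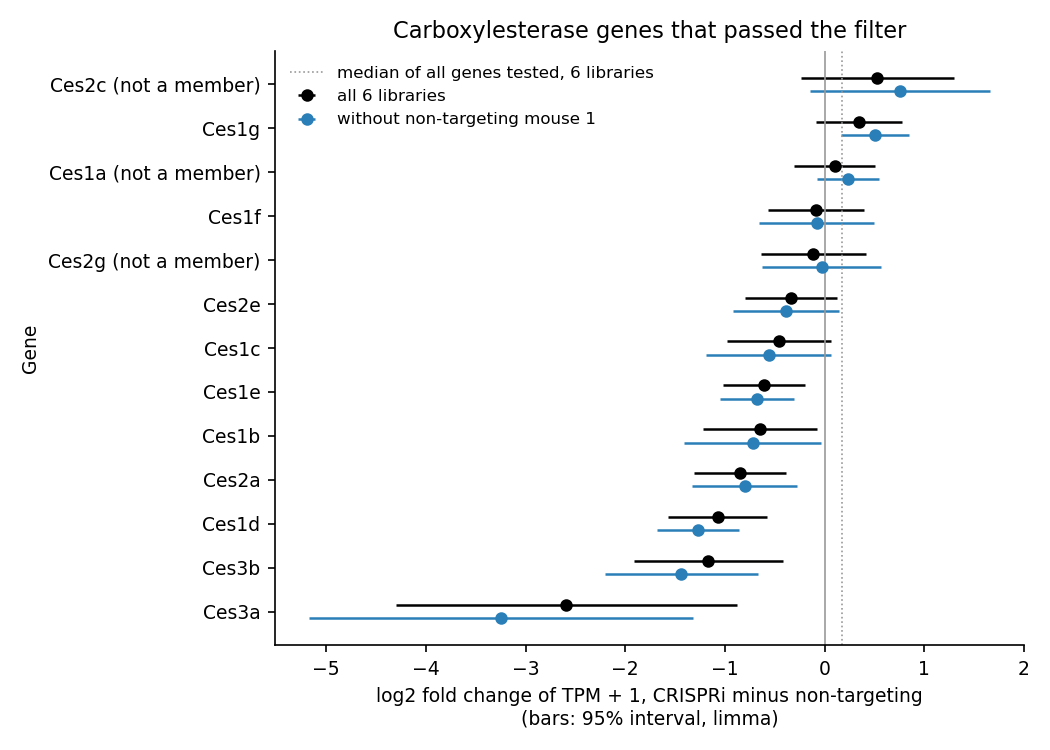
log2 fold change of TPM + 1 (CRISPRi minus non-targeting) with 95% intervals from limma for the 13 carboxylesterase genes that passed the filter, in all 6 libraries (black) and without non-targeting mouse 1 (blue); the dotted line is the median of all genes, 0.18. With all 6 libraries the values run from -2.59 for Ces3a to 0.53 for Ces2c, and without non-targeting mouse 1 from -3.25 to 0.76.

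Among the 10 carboxylesterase genes outside the list, 3 passed the filter and none of these had groups that did not overlap. Ces2c, a Ces2 gene of high level, was at 167, 75.5 and 141 TPM in the non-targeting and 237, 188 and 122 TPM in the CRISPRi mice (log2 fold change 0.53, limma adjusted p = 0.457). Its coding transcript was at 166, 62.3 and 90.9 against 237, 187 and 122 TPM, while a retained-intron model was at 0.429, 13.2 and 50.5 against 0, 0.767 and 0. Ces2g was at 9.80 to 13.4 and 7.87 to 13.6 TPM, and Ces1a at 0.832 to 1.44 and 1.09 to 1.31. With Ces2c and the other paralogs added, the Ces2 sums overlapped, at 268 to 343 TPM in the non-targeting and 218 to 379 in the CRISPRi mice. Ces2d-ps, Ces2b, Ces1h, Ces2h, Ces2f and Ces4a were at or below 0.562 TPM in every library and were not tested, and Ces5a was listed at 0 in all of them.

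The number of carboxylesterase genes called changed when non-targeting mouse 1 was left out and when libraries were weighted. Without non-targeting mouse 1, 5 members passed as lower in limma, against 2.24% of all genes: Ces1d (adjusted p = 0.0173), Ces3b (0.0291), Ces1e (0.0303), Ces3a (0.0358) and Ces2a (0.0444). In that fit Ces1g passed as higher (log2 fold change 0.51, adjusted p = 0.0461), but so did 23.1% of all genes. When the libraries were also scaled by median-of-ratios, an alternative chosen after seeing the data, Ces1d, Ces1e, Ces2a and Ces3b passed as lower, against 2.74% of all genes as lower and 1.74% as higher, and Ces1g did not pass. With array weights, which give variable libraries less weight, the 5 members Ces1d, Ces1e, Ces2a, Ces3a and Ces3b passed as lower. Of all genes, 2.33% passed as lower and 18.5% as higher with these weights. No member passed when any other mouse was left out.

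Genes of related function are given beside the members, and their counts are to be read against all genes tested, of which 26.0% were below 0, 3.19% were lower and 10.1% higher at an unadjusted p below 0.05, with a median of 0.18. Of 27 tested genes of other hepatic ester hydrolases and lipases, 20 were above 0 and 7 below, with a median log2 fold change of 0.36 and, at an unadjusted p below 0.05, 3 lower and 4 higher. Those of smallest p were Pnpla7, a lysophospholipase gene (110, 234 and 98.0 against 59.6, 68.0 and 71.8 TPM), the paraoxonase gene Pon1 (181, 209 and 154 against 109, 146 and 115 TPM) and, in the other direction, Pnpla2, which encodes adipose triglyceride lipase (76.8, 56.9 and 67.7 against 122, 95.7 and 79.9 TPM). In each of these 3 genes the groups did not overlap. Esd, the next by p, was at 1094, 413 and 635 against 1437, 1261 and 892 TPM, with overlap. Of the 27 genes, 3 were lower and 5 higher without overlap, against 4.57% and 12.5% of all genes. Of 23 genes of VLDL assembly and secretion, 17 were above 0 and 6 below, with a median of 0.16 and 2 at an unadjusted p below 0.05, both higher. The shares above and below 0 in both lists were close to those of all genes. Apoe was at 15063, 12343 and 15816 against 18893, 19234 and 19269 TPM.

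The receptors and targets of drug metabolism were counted in the same way, and the shares of both lists below 0 were again close to the 26.0% of all genes. Of 21 tested CAR and PXR target genes, 16 were above 0 and 5 below, with a median of 0.48, beside 0.18 for all genes. At an unadjusted p below 0.05 in limma there were 7, all higher, against 10.1% of all genes as higher. Higher without overlap were only 2 of the 21, Abcc3 and Gstm1, against 12.5% of all genes. The groups of Abcc2 and Gsta2, also among the 4 of smallest p, overlapped. The transporter gene Abcc3 was at 114, 63.7 and 89.5 TPM in the non-targeting and 159, 146 and 136 TPM in the CRISPRi mice. Of 19 receptor and factor genes, 14 were above 0 and 5 below, with a median of 0.20. At an unadjusted p below 0.05 in limma 1 was lower and 2 were higher, against 3.19% and 10.1% of all genes. Onecut1, a liver transcription factor gene, was at 0.981, 2.08 and 1.99 against 0.677, 0.659 and 0.524 TPM. The receptor gene Esrra was at 33.3, 23.5 and 27.6 against 36.2, 40.5 and 41.4 TPM, and Nfe2l2, which encodes NRF2, at 37.5, 18.3 and 27.0 against 37.8, 46.5 and 41.7. Of 7 tested genes of the endoplasmic reticulum retention list, 3 were above 0 and 4 below, with a median of -0.12; the chaperone gene Hsp90b1 had the smallest p (149, 258 and 180 against 151, 161 and 127 TPM), and 0 were at an unadjusted p below 0.05. None of the genes of these lists passed the adjusted threshold in limma, and no set test was run.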

How the data were processed

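Ribosome-bound, poly(A)-selected RNA of 6 mouse livers was measured, 3 with each guide. The authors deposited TPM per transcript for the whole series. Per the submitters' processing notes reads were quantified by kallisto on mm39. Its version, the transcript set and any filters were not stated in the sources used here. TPM keep no depth, so no counting interval can be given.

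Transcripts were summed by symbol, and 168 transcripts without one were left out (116 to 143 TPM per library). The 10598 symbols whose mean TPM reached 1 were carried into limma 3.58.1 (R 4.3.3) as log2(TPM + 1) (trended prior, two-sided, Benjamini-Hochberg over all genes, threshold 0.05), checked first on simulated data. The pseudocount makes changes of low genes look smaller. Folds are ratios of mean TPM. The members, lists and tests were chosen with earlier results of these data known. Named are all carboxylesterase genes, Neurl1b, Fah and Rpl10a as checks, and up to 4 genes of smallest p per list. Gm7208, the single marker genes and Ddx3y were chosen after values were seen. Sequences came from GENCODE vM21 and RefSeq (both GRCm38), aligned with blastn 2.17.0. That build differs from mm39, so the coordinates serve only to locate the printed sequences. The alternatives tried are given in the closing section.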

Additional observations from a re-analysis of the deposited data

How the results depend on the processing

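The number of members called lower in limma was 0 with all libraries. With array weights it was 5 (against 2.33% of all genes as lower and 18.5% as higher). With non-targeting mouse 1 left out and median-of-ratios scaling it was 4. Over the fits that left out 1 mouse each, the number called higher ranged from 0 to 1 and the number called lower from 0 to 5. It stayed 0 with other pseudocounts (0.1, 5), without the filter or with a stricter one of 5 TPM, under median-of-ratios or quantile scaling, rescaling without abundant genes, a constant or robust prior, an adjusted p below 0.1, and at transcript level (15 of 17 member transcripts below 0, 10 at an unadjusted p below 0.05). The number below 0 was 9 in each fit except 8 without CRISPRi mouse 3, where Ces1f turned to 0.10 (leave-one-out range -0.28 to 0.10). Of genes outside the list, Ces1a turned to -0.0013 with median-of-ratios scaling and -0.075 with quantile normalization, and Ces2g to 0.045 with array weights and 0.10 without CRISPRi mouse 3 (leave-one-out range -0.26 to 0.10). The cause of these changes was not tested. With median-of-ratios scaling the median of all genes moved from 0.18 to -0.0013 and that of the members from -0.63 to -0.83.

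The mouse numbers were not treated as pairs in the main fit. Over genes, deviations from the group means of same-numbered mice had correlations of 0.0614, -0.096 and -0.2768. Non-targeting mice 2 and 3 correlated best with CRISPRi mice 3 and 2. Deviations within a group of 3 depend on each other, so these values cannot show whether same-numbered mice were handled together. With the mouse number as a replicate block, 0 members were called and 9 were below 0. Ces3b was below Ces1d with all libraries (-1.17 and -1.07) but above it with a pseudocount of 5 (-0.70 and -1.01), with array weights (-1.19 and -1.26) and without CRISPRi mouse 3 (-0.88 and -1.16) or non-targeting mouse 3 (-0.92 and -1.07). The depth behind the values is unknown, and shared sequence limits the split between Ces3a and Ces3b.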
